A study of Caenorhabditis elegans with 2 samples.

Results

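Candidate regions of HPL-2 binding were described at 10 genes of insulin signalling and first larval stage (L1) arrest in starved Caenorhabditis elegans. The genes are daf-2, age-1, daf-18, pdk-1, akt-1, akt-2, sgk-1, daf-16, aak-2 and cki-1. The 10 were chosen by name from 19973 protein-coding genes, with earlier results of these data known. A region was given to a gene when its summit lay in the gene body or within 1000 bp of any annotated 5′ end, which gave 80 of the 30000 pooled regions to these genes. The strongest regions lay at aak-2, pdk-1 and akt-2, all on the X chromosome, and only these 3 members had a region in the thresholded list. The genes daf-2 and daf-16 held 55 of the 80 regions, all of them below that threshold, and age-1 had none. Chromatin immunoprecipitation sequencing (ChIP-seq) was done on whole L1 larvae of mixed sex that had hatched without food after bleaching. The strain, YL474, carries lin-35 allele n745, unc-119 allele ed3 and the integrated array vrIs64, in which the ges-1 promoter drives HPL-2 fused to GFP and FLAG, with the hpl-2 3′ UTR and unc-119(+). Both libraries, biological replicates 1 and 3, carry all of these elements, so there is 1 group with no second condition, and no test between conditions was possible. The promoter of ges-1 is active in the intestine, and because one label names hpl-2 as the antibody target while another names the tagged protein, the cells whose HPL-2 was precipitated are not known here.

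HPL-2 is one of the worm homologues of heterochromatin protein HP1, which binds histone H3 methylated at lysine 9, and lin-35 encodes the worm Rb-like protein. When food is present, insulin-like peptides activate the receptor DAF-2, whose signal passes through the phosphoinositide 3-kinase AGE-1 and the kinases PDK-1, AKT-1, AKT-2 and SGK-1 and keeps the FOXO transcription factor DAF-16 out of the nucleus. The lipid phosphatase DAF-18 opposes AGE-1. In larvae that hatch without food the pathway is quiet, DAF-16 enters the nucleus and development stops in L1, with the cyclin-dependent kinase inhibitor CKI-1 holding blast cells out of the cycle and the AMP-activated kinase subunit AAK-2 needed for survival.

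The sequences at the 3 thresholded summits are shown because these are the places of highest signal among the members. Each is 30 bases of the RefSeq copy of WBcel235, the assembly called ce11 in the deposited lists, written 5′ to 3′ on the strand of the gene, which is the plus strand in all 3, with the base at the summit in capitals. They lie at chrX:16796990-16797019 for aak-2, chrX:1323189-1323218 for pdk-1 and chrX:14146918-14146947 for akt-2.
aak-2 summit: gcagacggctggcgCcccgcgtgaggcgac
pdk-1 summit: aaacgacgacatcgTcatagaattgtctac
akt-2 summit: gcagcaaaaaaggtCacatcccctctcttc
G and C made up 80% of the bases printed for aak-2, 50% of those for akt-2 and 40% of those for pdk-1.

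Matches to the element CTTATCA, known as the DAF-16 associated element and often found near DAF-16 targets, were shown where they lay closest to a summit. The matched letters are in capitals, and a match on the other strand reads TGATAAG. At sgk-1, which lies on the minus strand, the strongest summit had a pair of matches, at chrX:16260254-16260283 and chrX:16260285-16260314, with centres 37 and 6 bp from the summit. At pdk-1, on the plus strand, the match at chrX:1321493-1321522 was centred 1 bp from the second summit of the gene. The element GTAAACA, bound by DAF-16 itself, was found at 1 summit, in daf-2 at chrIII:3037602-3037631, where the minus strand carries the gene and the letters read TGTTTAC.
sgk-1 first match: ctctcaaaggacTGATAAGgccgaagaaaa
sgk-1 second match: cttatgcagtatTGATAAGtgtagtgaaac
pdk-1 match: gttcgggtgcaCTTATCAaactagacccgt
daf-2 match: tcagattctcgtTGTTTACgttgagaaaca
Within 100 bp of the summit, CTTATCA was present at 7 of the 80 member regions (8.75%) and at 6.07% of all pooled regions, both strands searched. GTAAACA was present at 1 of the 80 (1.25%) and at 2.94% of all. The members' shares lie near those of all regions, and a match only says that the letters are there.

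The values come from 4 deposited lists on build ce11: 30000 candidate regions for each library, 30000 for both libraries pooled, and 857 thresholded regions. The pooled candidate list is labelled as peaks and background, so a candidate region or a count of summits is not by itself evidence of binding. The signal is the authors' enrichment value for a region and was used only to rank and describe regions within a list. The thresholded list was exactly the 857 pooled regions of highest signal, so its lowest signal was 37.9 and strength in a single library can put a region on it. Across the candidate lists the signal ran from 6.69 to 198 in replicate 1 and from 2.01 to 58.0 in replicate 3, so signals are not comparable between libraries and ranks are given beside them. The lists hold no read counts, and the depth of either library is unknown. The lists measure no expression, so the intestinal origin of the tagged protein could not be checked against marker genes. The loci hpl-2, ges-1 and unc-119, whose sequences the array carries, had no candidate summit in any of the candidate lists; they lay in stretches of 22.4, 38.2 and 32.1 kb without a pooled summit, and the cause was not tested.

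A candidate summit was found at 9 of the 10 members in the pooled list, where 61.8% of all protein-coding genes had one. A thresholded region was found at 3 of the 10, where 4.68% of all genes had one. The members are long, with a median searched window of 7.96 kb against 3.045 kb over all genes, and longer windows hold more summits. Among the 2731 X-linked genes 3.95% had a thresholded region, and among autosomal genes 4.8%. The 3 called members have windows between 5 and 9 kb, and of the 560 X-linked genes with such windows 5.71% were called. With the 857 regions of highest signal in each library, 3 members were called in replicate 1, where 4.57% of genes were called, and 2 in replicate 3, where 4.3% were. Replicate 3 left out akt-2, whose region ranked 911 there. With 10 genes chosen by name, and with earlier results of these data known, these counts describe the members and carry no test.

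**Figure D1:**
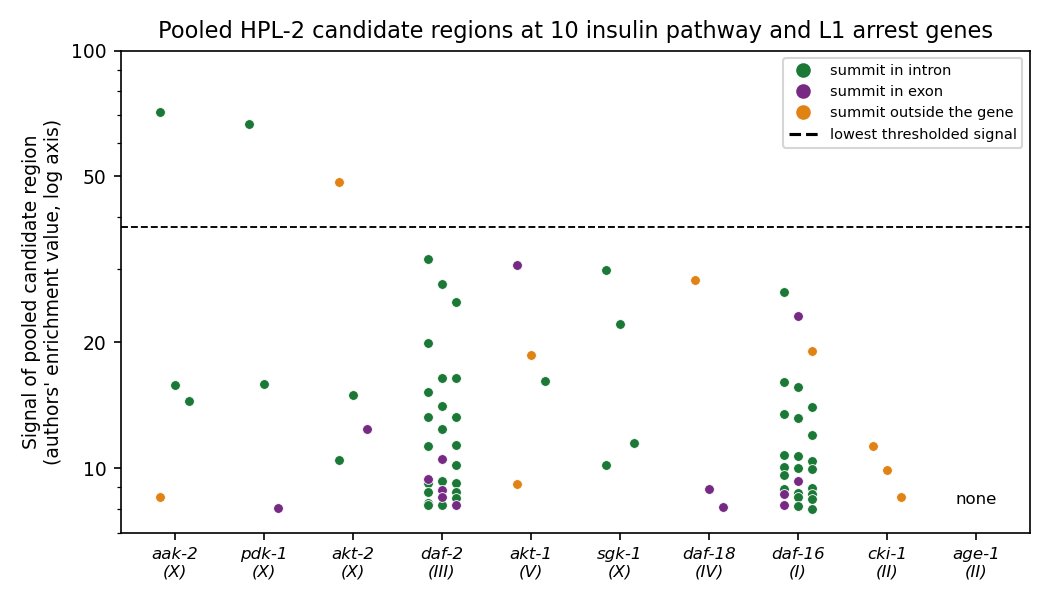
Signal of each of the 80 pooled candidate regions (authors' enrichment value, log axis) at the 10 members, ordered by their strongest region; colours give the place of the summit, the dashed line is the lowest thresholded signal, and numerals under the names are chromosomes. Only aak-2, pdk-1 and akt-2 have a region above the line, at 71.3, 66.8 and 48.4, and daf-2 and daf-16 have many regions below it.

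The receptor gene daf-2 (chromosome III, 2994514 to 3040846, minus strand, 46.3 kb, 7 annotated 5′ ends) held 28 pooled candidate summits. Replicate 1 had 24 summits in the same window and replicate 3 had 23. Of all 19973 protein-coding genes only cox-6B, with 35, had as many in the pooled list. Part of that number is length, since daf-2 had the 11th longest of all windows. At 0.592 summits per kb, daf-2 was the 21st densest of the 223 genes with a window of at least 20 kb, whose median was 0.269. Some candidate regions overlap, and merging those that did left 24, a number that 1 other gene reached. In replicate 1, 10 genes including daf-2 had as many summits as it did, and in replicate 3, 6 did.

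The regions of daf-2 were spread along the gene rather than gathered at its 5′ ends. There were 23 summits in introns and 5 in exons, and 3 of the 28 lay within 500 bp of one of its 5′ ends. Their median signal was 10.3, below the 11.4 of all pooled regions. The deposited −log10 q of the daf-2 regions ran from 0.076 to 2.71, so many may be background. The strongest (3015694 to 3016069) had a pooled signal of 31.6 and rank 1295 and lay in an intron, 3724 bp from the nearest 5′ end of the gene. Its overlapping region had signal 27.6 and rank 1045 in replicate 1 and signal 3.52 and rank 15022 in replicate 3, so it was high in replicate 1 alone. The second region had its summit at 3034643 and went the other way, with rank 1142 in replicate 3 and rank 5031 in replicate 1. Both lie in masked repeat sequence, which made up 90.5% of the bases within 100 bp of the first summit and 88.6% of those at the second, against a mean of 35.7% over all pooled regions. The mean over all 80 member regions was 37.8%. At the thresholded summits of aak-2, pdk-1 and akt-2 the masked share was 10.4%, 10.9% and 15.9%. The third, at 3037538, carried the GTAAACA match printed above and lay within the noncoding gene linc-143, with rank 3763 in replicate 1 and 1516 in replicate 3. Of the 28 regions, 13 overlapped a candidate in both libraries.

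The gene of the phosphoinositide 3-kinase catalytic subunit, age-1 (chromosome II, 11519328 to 11527054, minus strand), was the only member with no candidate summit in the pooled list or in either library. The empty stretch around it ran from 11509860 to 11533445, 23.6 kb between neighbouring pooled summits, where the median distance between neighbours was 1788 bp. Of 29994 such distances, 243 were at least as wide. In replicate 1 the stretch was 19.5 kb and in replicate 3 it was 24.9 kb. The mediator subunit gene mdt-8, npr-41, srh-44, B0334.10 and Y62F5A.10 also lie in that stretch at least in part. Other long genes were empty too: 143 of 1620 genes with a window at least as long (8.83%) had no pooled candidate.

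The phosphatase gene daf-18 (chromosome IV, 420011 to 425177, minus strand) had 3 summits in the pooled list and 3 in each library. The strongest had a pooled signal of 28.3 and rank 1687 and lay 629 bp upstream of the 5′ end of daf-18, but 362 bp from that of the neighbouring gene garr-1. It ranked 2668 in replicate 1 and 4374 in replicate 3. Masked repeats made up 77.1% of the bases within 100 bp of this summit. The other regions, in exons, had signals of 8.90 and 8.07, near the bottom of the pooled list.

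The kinase gene pdk-1 (chromosome X, 1321344 to 1327986, plus strand), whose product phosphorylates the AKT kinases, held the second strongest region of the members. The region spans 1323015 to 1323390, with a pooled signal of 66.8, rank 203 and a deposited −log10 q of 3.23. Its summit lay in the second intron, 2051 bp long, 1850 bp downstream of the nearest 5′ end of pdk-1. The overlapping region had signal 52.3 and rank 216 in replicate 1 and signal 11.6 and rank 775 in replicate 3, inside the top 857 of both. The other regions were weaker, with signals of 15.9 at 153 bp from the 5′ end, where the CTTATCA match lies, and 8.03 in an exon at the other end of the gene.

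The AKT kinase genes differed in where their strongest region lay. At akt-2 (chromosome X, 14147700 to 14152070, plus strand), the strongest region spans 14146744 to 14147119 and its summit was 768 bp upstream of the only annotated 5′ end. Its pooled signal was 48.4, at rank 489. The overlapping region had signal 45.1 and rank 327 in replicate 1 and signal 10.99 and rank 911 in replicate 3, so it was inside the top 857 of replicate 1 only. The other 3 regions of akt-2 had signals of 10.5 to 14.96, and none of these overlapped a candidate of both libraries.

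At akt-1 (chromosome V, 10248905 to 10252845, plus strand), the strongest region, with a pooled signal of 30.6 and rank 1395, had its summit in the last stretch of the gene, 3834 bp from the nearest akt-1 5′ end and 2265 bp from that of rop-1. It overlapped regions ranked 2093 in replicate 1 and 2310 in replicate 3. The replicate 1 summit itself fell 72 bp outside the searched window, which is why the best akt-1 rank by the window rule was 8170 in that library. A second akt-1 region, of signal 18.7, lay 248 bp upstream of a 5′ end. It overlapped a candidate in replicate 1 only, at rank 8170. The same replicate 1 candidate also overlapped a weaker pooled region with its summit 26 bp upstream.

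The related kinase gene sgk-1 (chromosome X, 16254842 to 16262122, minus strand) had 4 pooled summits, 4 in replicate 1 and 2 in replicate 3. Its strongest region, at 16260117 to 16260492, had a pooled signal of 29.9 and rank 1475 and held the pair of CTTATCA matches printed above. It lay in the first intron, 177 bp upstream of an internal 5′ end. Replicate 1 had the region at signal 26.0 and rank 1220, and replicate 3 had no overlapping candidate, so it rests on replicate 1. The second, at 16257394 with signal 22.2, was found in both libraries, with rank 6841 in replicate 1 and 5817 in replicate 3.

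**Figure D2:**
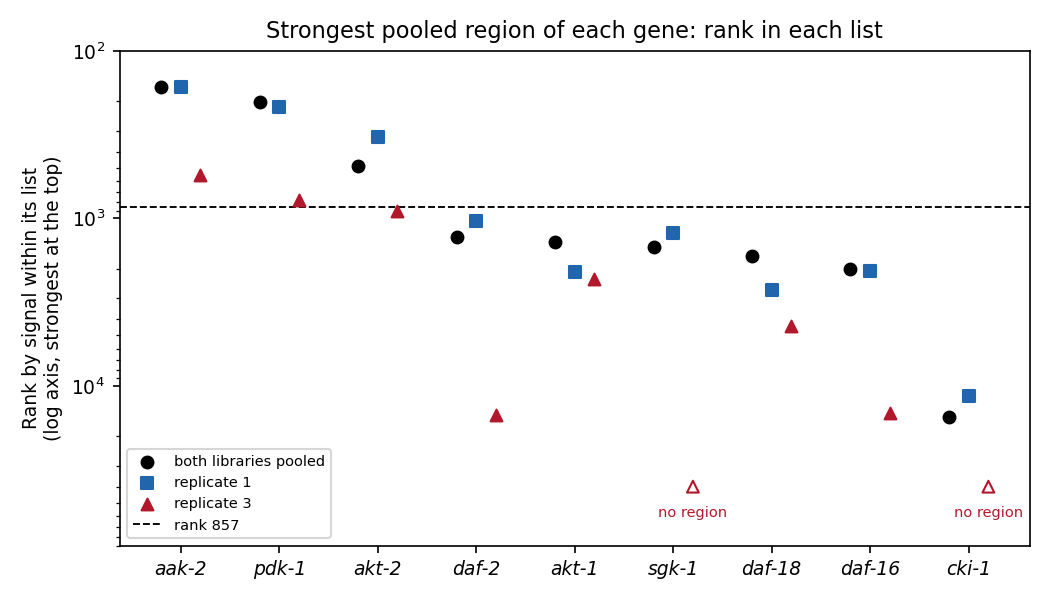
Rank by signal of the strongest pooled region of each member in the pooled list, in replicate 1 and in replicate 3 (log axis, rank 1 is the highest signal), with the dashed line at rank 857. The regions of aak-2 and pdk-1 stay inside the top 857 in both libraries, akt-2 passes it in replicate 3, and the strongest regions of sgk-1 and cki-1 have no overlapping candidate in replicate 3.

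The transcription factor gene daf-16 (chromosome I, 10750498 to 10776703, plus strand, 26.2 kb, 7 annotated 5′ ends) held 27 pooled candidate summits, 22 in replicate 1 and 19 in replicate 3. In the pooled list only daf-2 and cox-6B had more. Its window was only the 93rd longest, and at 0.992 summits per kb it was the second densest of the 223 genes with windows of at least 20 kb, among which the highest density was 1.19. Its place by number of summits depends on overlapping regions: merging them left 19, a number that 13 genes including daf-16 reached. No density after merging is given here. In single libraries 14 genes had as many summits in replicate 1 and 17 in replicate 3, daf-16 included.

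As at daf-2, the daf-16 regions were numerous and weak. Their median signal was 10.02, and their deposited −log10 q ran from 0.069 to 2.33. In introns lay 22 and in exons 4, and 16 of the 27 overlapped a candidate in both libraries. The strongest spans 10761897 to 10762272, with a pooled signal of 26.4 and rank 2009, in an intron of 12401 bp and 1018 bp upstream of an internal 5′ end. Within 100 bp of this summit there was no masked repeat, unlike at the strongest summit of daf-2, but the region too was higher in replicate 1 (signal 21.1, rank 2062) than in replicate 3 (signal 3.60, rank 14490). The second, in an exon near the 3′ end with a pooled signal of 23.2, overlapped regions ranked 5864 in replicate 1 and 1047 in replicate 3. The replicate 3 summit lay 214 bp from it and only 15 bp from a weaker pooled daf-16 summit, of signal 9.32. The third, of signal 19.1, lay 293 bp upstream of the first 5′ end, and ranked 8650 in replicate 1 and 5745 in replicate 3. CTTATCA matches were found at 4 of the 27 summits.

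**Figure D3:**
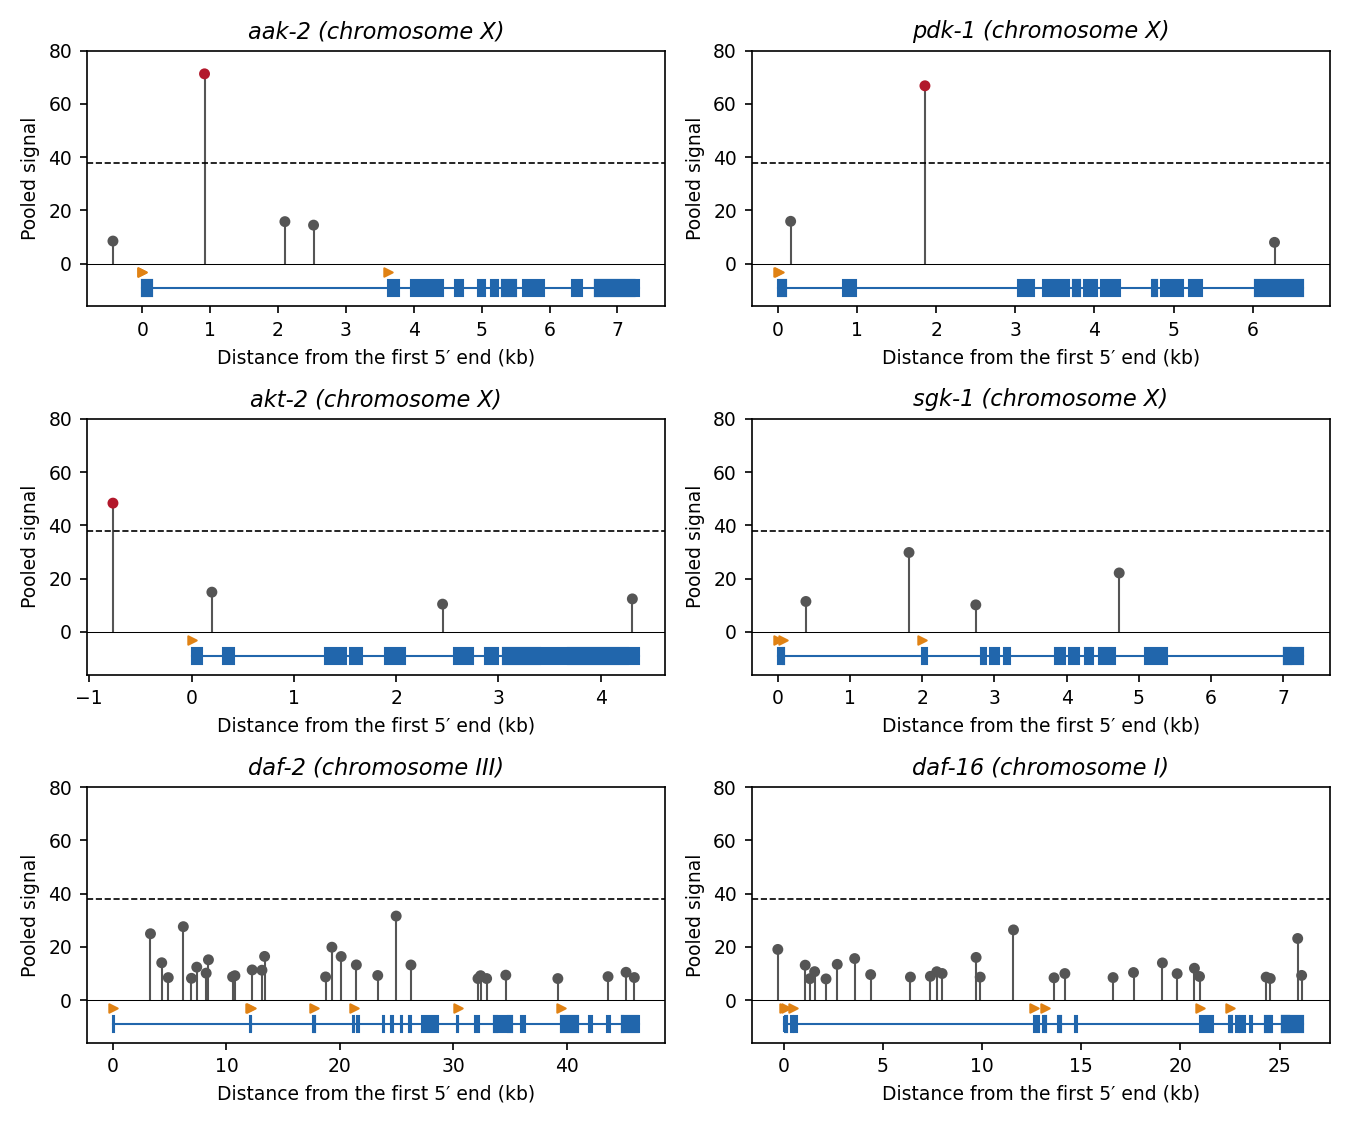
Pooled candidate summits along 6 members, with distance from the first 5′ end in kb on the horizontal axis and pooled signal on the vertical axis; red points are thresholded, the dashed line is the lowest thresholded signal, blue boxes are exons of the merged transcripts and orange arrows are annotated 5′ ends. The thresholded summits of aak-2 and pdk-1 stand in introns and that of akt-2 upstream of the gene, while the daf-2 and daf-16 summits run along the whole gene below the line.

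The AMP-activated kinase gene aak-2 (chromosome X, 16796087 to 16803398, plus strand) held the strongest region of all members. The region spans 16796816 to 16797191, with a pooled signal of 71.3, rank 164 and a deposited −log10 q of 3.23. The overlapping region had signal 57.0 and rank 164 in replicate 1 and signal 12.9 and rank 554 in replicate 3, so it was inside the top 857 of both. Its summit lay in the first intron of the longer transcripts, 3475 bp long, 915 bp downstream of the nearest 5′ end and 111 bp from the noncoding gene T01C8.9. The other pooled summits had signals of 15.8, 14.5 and 8.51, the last of them 432 bp upstream of the 5′ end. Replicate 1 had 7 summits in the window and replicate 3 had 8, against 4 in the pooled list.

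The cell cycle inhibitor gene cki-1 (chromosome II, 7811240 to 7812105, plus strand) is the shortest member, at 0.866 kb, and had 3 weak pooled summits. The strongest, 41 bp upstream of the 5′ end, had a pooled signal of 11.3, rank 15452 and a deposited −log10 q of 0.254. Replicate 1 had it at signal 10.8 and rank 11443, and replicate 3 had no overlapping candidate. The highest rank in the window was 6394 in replicate 1 and 20645 in replicate 3. Its density of 1.499 summits per kb was the highest of the members, but it rests on 3 summits in a window made mostly of the 1000 bp on either side of 1 end. Over all members, the pooled summits just inside a window edge were 55 bp from it at akt-1 (signal 30.6), 61 bp at akt-2 (12.4) and 75 bp at cki-1 (8.55). Those just outside were 168 bp beyond the window of aak-2, 172 bp beyond that of sgk-1 and 198 bp beyond that of pdk-1.

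**Figure D4:**
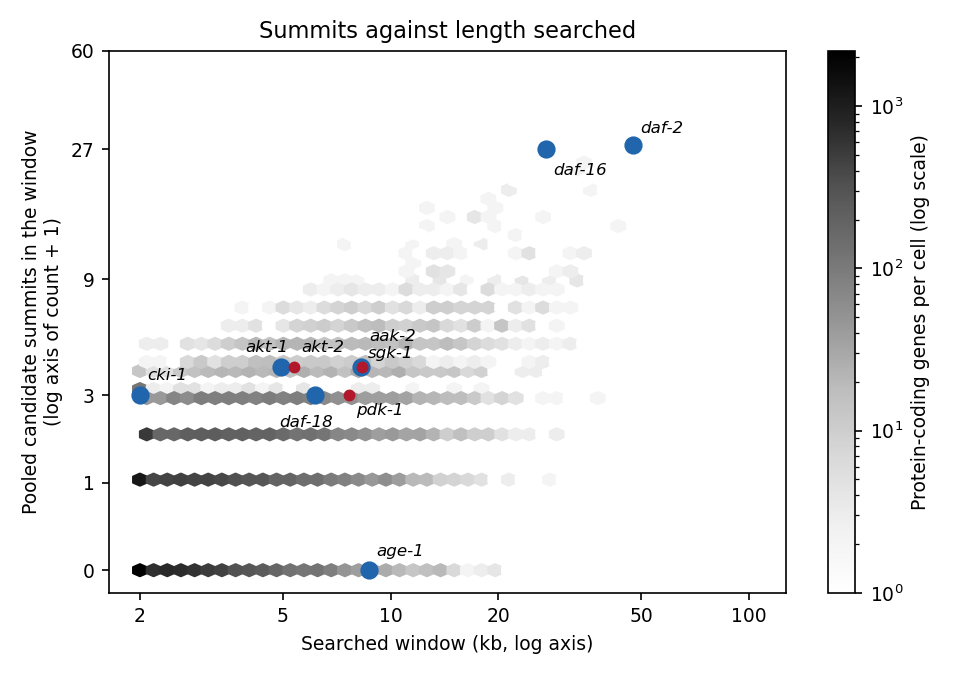
Pooled candidate summits per gene (log axis of count + 1) against the length of the searched window in kb (log axis) for all protein-coding genes as a grey density, with the members as larger points, red for those with a thresholded region. The genes daf-2 and daf-16 lie at the upper right with 28 and 27 summits, and age-1 lies at 0 with a window of 8.73 kb.

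Per kb of window, 9 of the 10 members had more pooled summits than the median gene. The members' median was 0.539 per kb, from 0 at age-1 to 1.499 at cki-1, and the median over all genes was 0.266, with 7635 genes (38.2%) at 0. In replicate 1 the members' median was 0.497 against 0.271 over all genes, and in replicate 3 it was 0.486 against 0.270. The 4 X-linked members held 15 summits (0.507 per kb) and every thresholded region, while the 6 autosomal members held 65 summits (0.674 per kb) and no signal above 31.6. Of the 65 autosomal summits, 55 lay in daf-2 and daf-16. These genes had the most summits and no thresholded region, which describes these 10 genes and no more. Per kb the split held only in part. The densities were 0.992 at daf-16, 0.745 at akt-2, 0.592 at daf-2, 0.481 at aak-2 and 0.393 at pdk-1. Only akt-2, of those with a thresholded region, was denser than daf-2, and none was denser than daf-16.

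The 80 member regions lay mostly inside genes. Summits in introns made up 57 of them (71.25%), against 33.6% of all pooled regions, and 9 (11.25%) lay outside genes, against 43.0%. The rule takes whole gene bodies, so these shares follow in part from how regions were chosen, and 23 of the 57 lay in daf-2 and 22 in daf-16. Within 500 bp of the 5′ end of any protein-coding gene lay 16 of the 80 (20%), against 31.2% of all pooled regions. Counting only ends of the member itself there were 15, and the strongest region was that close at sgk-1 and cki-1 only. Both libraries overlapped 42 of the 80 (52.5%), against 37.9% of all pooled regions. Of the 42, 16 lay in daf-16 and 13 in daf-2. There, neighbouring pooled regions could overlap the same library region, and 1 bp of overlap was enough. The share is therefore not a measure of how well these regions repeat. Around the summits, 100 bp to either side, G and C made up 36.25% ± 6.38 of the bases (SD, n = 80 regions) against 35.1% ± 6.79 over all pooled regions, a difference smaller than the spread. In the same stretch the share was above the members' mean at the thresholded summits, at 46.3% for aak-2, 45.8% for akt-2 and 41.8% for pdk-1. Weak summits reached such shares too, with 50.2% at a daf-2 summit of signal 8.86 and 46.8% at a daf-16 summit of signal 8.92. High G and C content is thus not particular to the thresholded summits.

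The neighbours in rank show what else had such signals. The aak-2 region stood between one 38 bp from the 5′ end of the trehalase gene tre-1 and one 800 bp from that of lin-13, a zinc-finger gene of the synMuv B class. The pdk-1 region stood between one 206 bp from the 5′ end of ndub-8 and one whose nearest 5′ end, that of F59A7.7, was 3509 bp away. The akt-2 region stood between one 45 bp from the DnaJ-domain gene dnj-16 and one whose nearest 5′ end, that of T01G1.4, was 2630 bp away.

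Among 77 other genes of the pathway and of starvation biology, 64 (83.1%) had a pooled candidate, against 61.8% of all protein-coding genes, and 6 (7.79%) had a thresholded region, against 4.68%. Their median window was 4.506 kb, longer than the 3.045 kb of all genes. Of the genes with a thresholded region, aakg-1, hlh-30 and let-363 have windows of 37.7, 21.2 and 18.7 kb. Those of ftt-2, rheb-1 and math-33 are 2.71, 2.87 and 5.92 kb. Of all 223 genes with windows of at least 20 kb, 11.7% had a thresholded region. Among 15 adaptors and regulators 2 were called. The 14-3-3 gene ftt-2, whose product binds phosphorylated DAF-16, had a pooled signal of 113 and rank 49, with best ranks of 54 in replicate 1 and 199 in replicate 3. The deubiquitinase gene math-33 had a signal of 42.8, but the 5′ end of erfa-3 was nearer to that summit, at 310 bp against 506, and its best ranks were 675 in replicate 1 and 1621 in replicate 3. Of 9 TOR genes 2 were called: the kinase gene let-363, with 54.3 at a summit 16003 bp from its own 5′ end and nearer to vep-1, and the GTPase gene rheb-1, with 53.0 at 292 bp, about as near as spk-1 at 286 bp. In replicate 3 neither was in the top 857, with best ranks of 1474 and 2075, nor was math-33.

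Of 11 AMPK genes, whose products are AMPK subunits, act upstream of the kinase or are its targets, 1 was called. It was the gamma subunit gene aakg-1, with a pooled signal of 56.0 in an intron and best ranks of 615 in replicate 1 and 80 in replicate 3. Of 8 stress and fasting regulators hlh-30, the TFEB homologue, was called, with a signal of 39.5 at 209 bp from its 5′ end. The best ranks anywhere in its window, which held 19 pooled summits, were 773 in replicate 1 and 800 in replicate 3. No gene was called among 9 insulin-like ligands, 11 DAF-16 targets or 14 cell cycle and arrest genes, groups so small that a share of 4.68%, as over all genes, amounts to less than 1 gene in each. The highest signals in these groups were 14.2 at ins-35, 32.97 at sip-1, at 286 bp from its 5′ end but only 28 bp from that of sly-1, and 36.8 at cye-1.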

How the data were processed

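HPL-2 ChIP-seq of 2 libraries of 1 group was used as deposited on build ce11, named in the submitters' processing notes. The deposited lists give for each region a signal and a −log10 q-value by the authors' caller. Candidate lists hold 30000 regions, so what they contain depends on where each list ends. For the aligner, the caller, the control and the irreproducible discovery rate settings, names and versions were not given in the sources used here. The ce10 lists were not used for coordinates. Summits (start plus offset) were matched to Ensembl release 115 gene models with Python 3.11.15, numpy 2.4.6 and pandas 2.3.3, and drawn with matplotlib 3.10.9. The matching was checked on simulated data. Sequences came from the RefSeq copy of WBcel235. No test was made: with 1 group there are counts, ranks and medians beside those of all protein-coding genes, and depth, intervals and floors cannot be given. Members and lists were chosen with earlier results of these data known. Genes named are the members, the other pathway genes with a thresholded region, the highest of each list, rank neighbours, and nearer genes. The genes of the array were listed for a check, and cox-6B and the neighbours of age-1 were named after their values were seen. Alternatives were the window, the threshold, the overlap rule, each library alone, and backgrounds restricted by chromosome and length.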

Additional observations from a re-analysis of the deposited data

How the results depend on the processing

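The same 9 members had a candidate summit under every window, overlap and library setting tried. A thresholded region was found at 3 members (aak-2, pdk-1 and akt-2) also at 2000 bp, with any overlap and with the nearest 5′ end only. It was found at pdk-1 and aak-2 alone at 500 bp and in the top 428 regions, and at akt-2 and aak-2 alone from 5′ ends without gene bodies. With 1714 pooled ranks in place of the threshold, 7 members were called, adding daf-2, daf-18, akt-1 and sgk-1. More ranks can only raise the share of all genes called, and that share is not given for these windows and rank cuts. The count of 7 is therefore not a result about the members. Leaving out 1 library gave 2 to 3 members. Without replicate 1 the median density was 0.486 summits per kb and without replicate 3 it was 0.497, against 0.539 pooled. Chosen after seeing the data, 766 ranks, the size of the thresholded ce10 list, gave 3. Within 200 bp of the summit, GTAAACA was at 3 member regions (3.75%, against 5.62% of all) and CTTATCA at 9 (11.25%, against 10.6%). No paired analysis was possible because there is only 1 group. Region lists without read counts limit all values to rank and place.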
